A study of Mus musculus with 18 samples.

Results

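The 42 genes described here mark the endothelium, the cell layer that lines blood and lymph vessels, or encode the molecules by which that layer holds passing leukocytes. They were chosen by name, with earlier results of these data known. A probe set of the array was taken as a member's where the platform annotation named that gene alone. This gave 80 of the 45037 probe sets and 42 of the 18193 named genes. After a filter on dim probe sets, 70 of these probe sets and 40 of the genes remained, against 25746 probe sets and 12412 genes in all. Gja5, an arterial connexin, had 1 probe set with signals between 1.1 and 25.8, and Prox1, the transcription factor of lymphatic endothelium, had 3 with signals up to 10.8. Neither gene passed, and neither was tested.

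Endothelial cells are joined by junction proteins, carry surface glycoproteins that few other cells have, and keep their identity through transcription factors of the SOX and ETS families. Notch and ephrin signalling sets arteries and their capillaries apart from veins. When the layer is activated by inflammation it displays selectins, which slow leukocytes down, and immunoglobulin-type adhesion molecules, which stop them. Lung capillaries are among the densest vessel beds of the body, and the lung endothelium is a known target of ionizing radiation.

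The arrays measured RNA of the right lung of inbred mice, with 3 arrays in each of 6 groups. Untreated mice of the strains A/J, C57BL6/J and C3H/HeJ were 15 to 26 weeks old. Irradiated mice of the same strains had been given 18 Gy of caesium gamma rays over the thorax when 8 weeks old, behind 3 cm of lead that let 3% of the beam reach the remaining body, and were killed once moribund. Their age was then 30 to 32 weeks (A/J), 28 to 30 weeks (C57BL6/J) or 20 to 22 weeks (C3H/HeJ), which is 22 to 24, 20 to 22 or 12 to 14 weeks after exposure. Dose, time since exposure and moribund state go together within each strain, and age joins them in A/J and C57BL6/J, so that their parts cannot be told apart. The right lung was taken whole, so that fewer endothelial cells and less RNA per endothelial cell cannot be told apart either.

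All levels below are normalized log2 signals, which are log2(signal + 7) after quantile normalization, and all differences are irradiated minus control on that scale with a standard error from limma. A gene is called where limma's adjusted p was under 0.05. Lung genes were high in all 18 arrays: the surfactant gene Sftpc lay between 12.78 and 13.01, the alveolar gene Ager between 12.69 and 12.94, and the junction gene Pecam1 between 9.44 and 10.49. Some arrays stood apart. A list of squamous keratin genes had a mean of 7.36 in A/J irradiated 3 and of 8.10 in both C57BL6/J control 1 and C57BL6/J control 3, where the other arrays reached at most 5.06, and skeletal muscle genes were high in the same 3 arrays. Over 33 probe sets that separate untreated A/J (position 0) from untreated C3H/HeJ (position 1), the array labelled C3H/HeJ irradiated 3 lay at 0.52, and the other C3H/HeJ arrays lay between 0.97 and 1.01. The actin 5′/3′ signal ratio, a sign of RNA integrity and labelling, was 0.413, 0.551 and 0.528 in irradiated A/J and 0.677 to 0.766 in the other 15 arrays. The GAPDH 5′/3′ ratio was 0.294 in A/J irradiated 1, 0.876 and 1.03 in the other irradiated A/J arrays and 1.06 to 1.30 in the other 15. Median signals before normalization ranged from 14.8 to 39.7, the highest being that of A/J irradiated 1.

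Most tested members differed with irradiation in A/J and C3H/HeJ, and more were lower than higher. In A/J 22 of 40 members were called, 15 lower and 7 higher, or 55.0% against 24.1% of all 12412 genes. The background was 8.95% for lower and 15.1% for higher calls. In C57BL6/J 11 members were called, 10 lower and 1 higher, or 27.5% against 5.35% of all genes (2.36% lower and 2.99% higher). In C3H/HeJ 26 members were called, 20 lower and 6 higher, or 65.0% against 23.5% of all genes (10.6% lower and 12.8% higher). The median difference over the 40 members was −0.37 in A/J, −0.24 in C57BL6/J and −0.56 in C3H/HeJ, beside medians over all genes of 0.09, −0.01 and 0.01. These counts hold Sele, which passed the filter only through irradiated A/J and C3H/HeJ arrays. Without it 15 of 39 were lower and 6 higher in A/J, and 20 lower and 5 higher in C3H/HeJ. The members were chosen with earlier results of these data known, so that their shares describe the list and are no test of it. The shares of all genes given here stand beside every count of called genes in a list below.

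The split between lower and higher calls moved with the scaling of the arrays. Sele is counted here too. Without scaling the median of all genes stood at 0.56 in A/J, 0.06 in C57BL6/J and 0.61 in C3H/HeJ, and the members called were 6 lower and 9 higher in A/J, 3 lower in C57BL6/J, and 6 lower and 9 higher in C3H/HeJ. With each array centred on its median they were 7 lower and 11 higher, 10 lower, and 12 lower and 8 higher. Relative to the median of all genes, the members' median stayed below 0 under each scaling, at −0.46, −0.36 and −0.36 in A/J, −0.23 each time in C57BL6/J, and −0.57, −0.45 and −0.45 in C3H/HeJ, for quantile normalization, no scaling and centring. In A/J without irradiated 1, 17 members were lower and 8 higher, and in C3H/HeJ without irradiated 3, 14 were lower and 4 higher, the calls lost being those of Sele, Nos3, Lyve1, Icam2, Cldn5, Egfl7, Ephb4 and Notch4. Without the 3 arrays high in squamous keratins, 12 were lower and 7 higher in A/J, and 1 was lower in C57BL6/J, where a single control array is then left and is assumed to vary like the other groups.

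**Figure D1:**
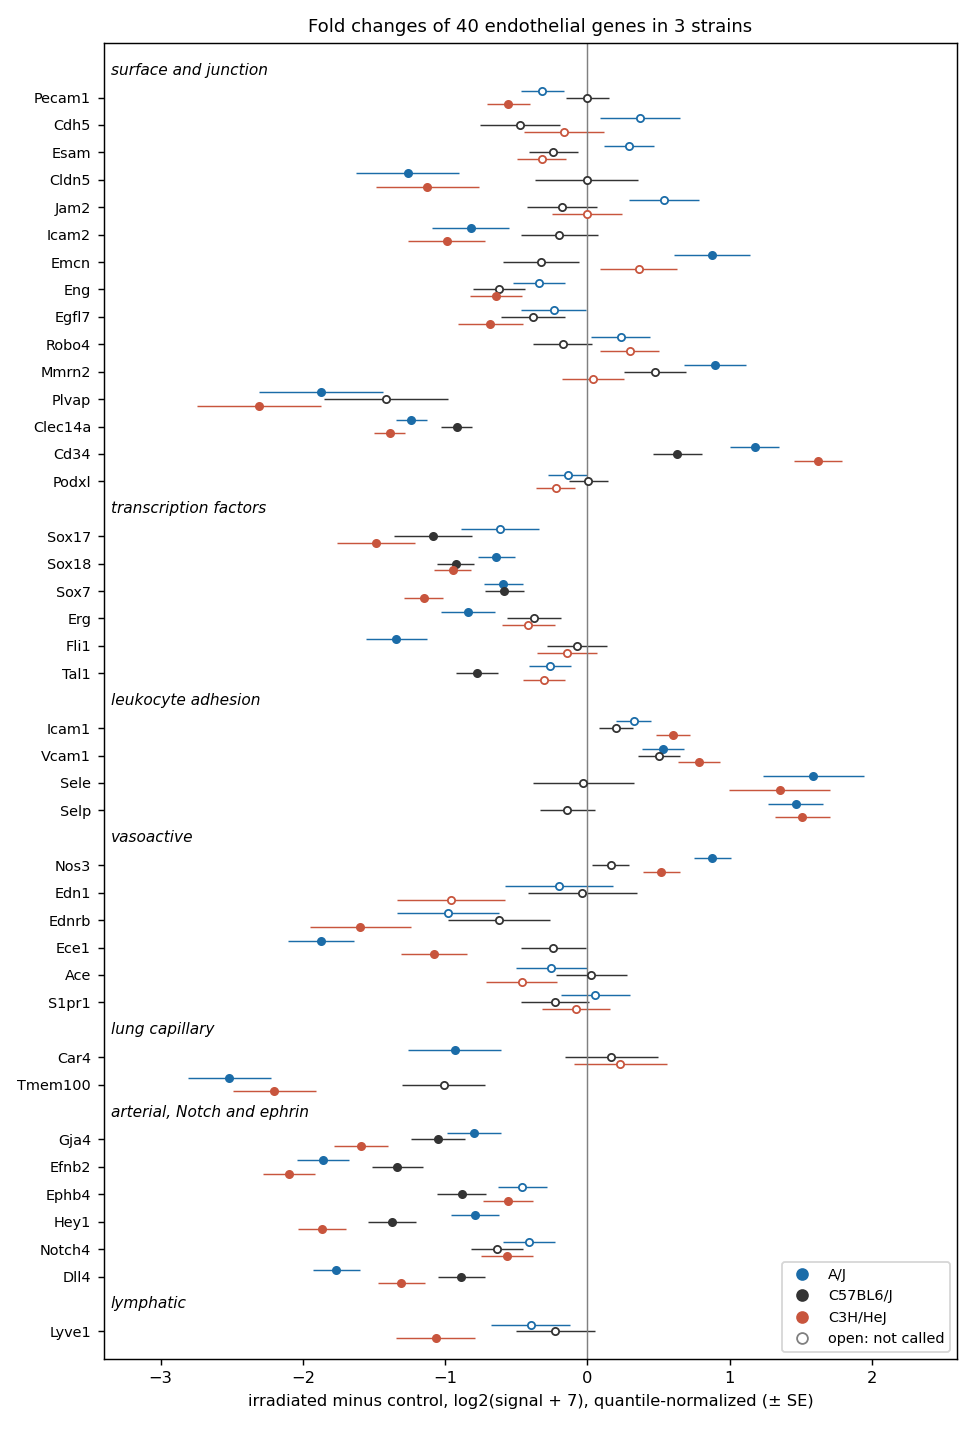
Difference between irradiated and control arrays on the log2(signal + 7) scale after quantile normalization, with standard errors, for the 40 tested members in A/J, C57BL6/J and C3H/HeJ (3 arrays a group). Filled points were called; the arterial, Notch and ephrin genes lie left of 0 in all 3 strains, though Ephb4 and Notch4 turn above 0 in A/J and C3H/HeJ without scaling, and the leukocyte adhesion genes lie right of 0 in A/J and C3H/HeJ.

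Counted without a test, all 3 irradiated arrays lay below all 3 controls in 17 members in A/J, 16 in C57BL6/J and 24 in C3H/HeJ, where 15.2%, 12.5% and 18.9% of all genes did so. They lay above in 8, 3 and 7 members, or in 7, 3 and 6 without Sele, against 25.2%, 11.7% and 21.4% of all genes. Of the 40 members, 32 (Sele among them) were called in at least 1 strain and 8 in none: the junction genes Cdh5, Esam and Jam2, the guidance receptor Robo4, the sialomucin Podxl, the vasoconstrictor gene Edn1, the angiotensin-converting enzyme gene Ace and the sphingosine phosphate receptor S1pr1. For Cdh5, Podxl and Ace a second probe set was called lower in A/J and C3H/HeJ. No member was lower in 1 strain and higher in another, while 41 of the 12412 genes were. Of the 15 members lower in A/J and the 20 lower in C3H/HeJ, 12 were the same genes, which is 80% of the first list and 60% of the second. Over all genes, 539 were lower in both, which is 48.5% of those lower in A/J and 40.8% of those lower in C3H/HeJ.

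Lower in all 3 strains were 7 members: the C-type lectin Clec14a, the SOX factors Sox18 and Sox7, the connexin Gja4, the ephrin ligand Efnb2, and Hey1 and Dll4 of the Notch pathway. Over all genes, 120 (0.967%) were called lower in all 3. Higher in all 3 was Cd34, against 202 genes (1.63%) in all. Without scaling, Efnb2 and Plvap were the 2 members lower in all 3 strains and no member was higher in all 3. With centring 4 were lower, namely Clec14a, Efnb2, Dll4 and Plvap. With the mean of a gene's probe sets, 7 were lower, with Tmem100 in the place of Sox7. Without the 3 arrays high in squamous keratins, Clec14a alone was lower in all 3.

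Clec14a, a surface lectin made by endothelium and involved in sprouting, had the smallest standard error of the 7. Its levels were 10.36, 10.43 and 10.27 in A/J controls and 8.96, 9.20 and 9.18 after irradiation, 10.22, 10.20 and 10 against 9.13, 9.14 and 9.41 in C57BL6/J, and 10.27, 10.39 and 10.44 against 8.89, 9.08 and 8.96 in C3H/HeJ. Every irradiated array lay below every control array, whatever the strain. It fell by 1.24 ± 0.11 in A/J (adjusted p = 2.7e-06), by 0.92 ± 0.11 in C57BL6/J (0.000263) and by 1.39 ± 0.11 in C3H/HeJ (1.26e-06). Without scaling it stood at −0.645, −0.846 and −0.661, and each call was lost.

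Efnb2, the membrane-bound ephrin of arterial endothelium, fell furthest of the 7 in A/J and C3H/HeJ. Its control arrays stood at 9.89, 10.08 and 9.85 in A/J, 9.43, 9.60 and 9.71 in C57BL6/J and 10.26, 10.05 and 9.94 in C3H/HeJ, and its irradiated arrays at 8.15, 8.11 and 7.98, at 7.69, 8.55 and 8.49, and at 7.85, 7.95 and 8.15. The groups were far apart in each strain, and C57BL6/J irradiated 1 was the lowest of all 18 arrays. The decreases were 1.86 ± 0.18, 1.34 ± 0.18 and 2.10 ± 0.18, with adjusted p of 5.35e-06, 0.000788 and 2.28e-06. All 4 of its probe sets moved alike in A/J, between −1.98 and −1.80.

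**Figure D2:**
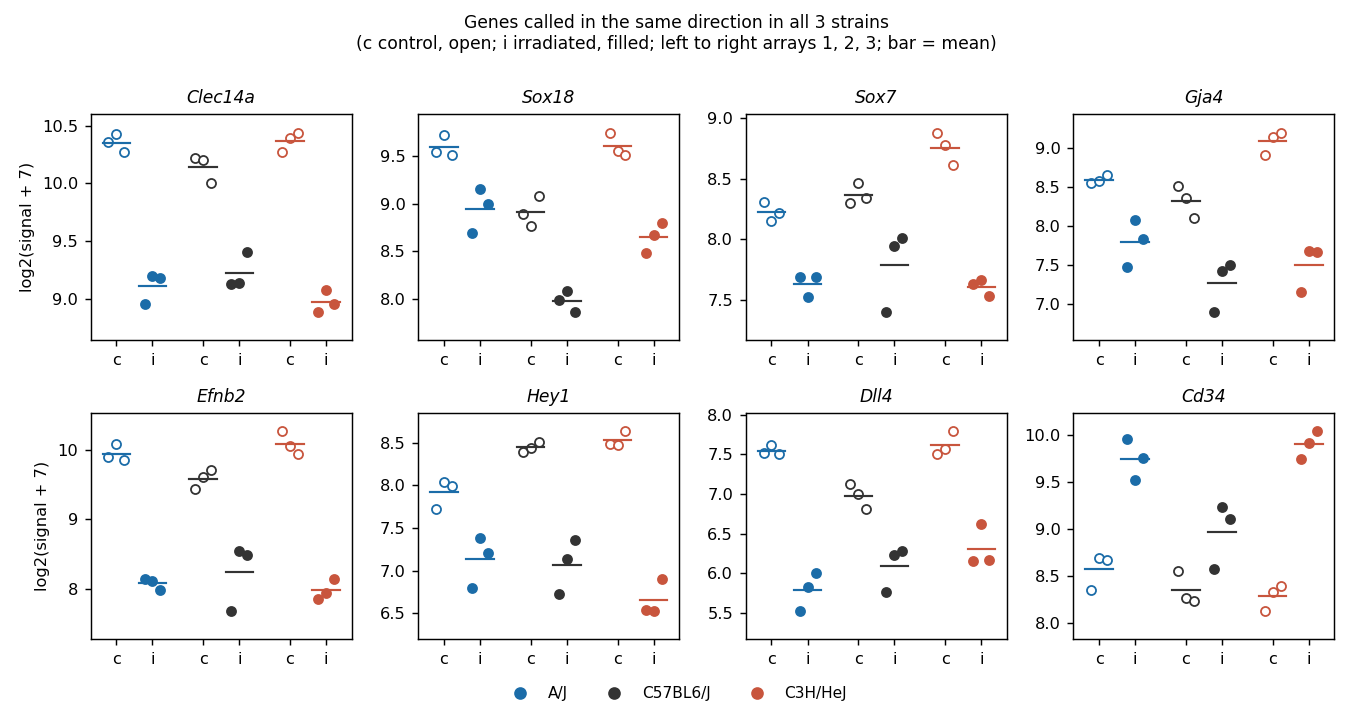
Normalized log2 signal of each of the 18 arrays for the 7 members called lower in all 3 strains and for Cd34, which was called higher in all 3. Open points are controls, filled points irradiated arrays and bars group means; within each strain the 2 groups do not overlap in any of the 8 panels.

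Promoter sequences show what these genes carry next to their start sites. The table of RefSeq promoters on GRCm38.p6 listed 24 of the 42 members. Of the 250 bases before each start, both strands were searched for AGGAAG, the core bound by ETS factors such as Erg and Fli1, for ACAAT, a core bound by SOX factors, and for the kappa B consensus. An AGGAAG and a kappa B match can overlap in part. ACAAT was found in 7 of the 24 members (29.2%) and in 28.3% of all 27025 promoters, and AGGAAG in 10 members (41.7%) and 29.2% of all. Of the 4 listed genes that were lower in all 3 strains, Clec14a and Gja4 had an ACAAT, and Clec14a, Gja4, Efnb2 and Dll4 had no AGGAAG. The 150 bases before the start of the first pair follow with the ACAAT in capitals, on the minus strand at chr12:58269259-58269408 for Clec14a and chr4:127314040-127314189 for Gja4. It lies 18 bases before the start in Clec14a and 82 bases before it in Gja4. A match describes these letters and is not a binding site.
Clec14a: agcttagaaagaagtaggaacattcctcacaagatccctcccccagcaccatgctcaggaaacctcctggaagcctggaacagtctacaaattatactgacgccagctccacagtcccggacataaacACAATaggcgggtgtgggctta
Gja4: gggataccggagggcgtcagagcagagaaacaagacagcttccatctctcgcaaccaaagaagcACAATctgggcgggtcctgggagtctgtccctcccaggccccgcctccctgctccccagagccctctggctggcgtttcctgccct

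The arterial, Notch and ephrin genes moved in 1 direction. Of the 6 measured, 4 fell in A/J, 5 in C57BL6/J and 6 in C3H/HeJ, and none rose. Their median difference was −0.80, −0.97 and −1.45, and it stayed below 0 without scaling (−0.25, −0.88 and −0.80) and with centring. Dll4, the Notch ligand of arterial and sprouting endothelium, fell by 1.76 ± 0.17 in A/J, from 7.52, 7.62 and 7.5 in controls to 5.53, 5.83 and 6.0. In C57BL6/J its controls were at 7.13, 7.0 and 6.81 and its irradiated arrays at 5.76, 6.23 and 6.28, a decrease of 0.89 ± 0.17. In C3H/HeJ controls were at 7.5, 7.57 and 7.79 and irradiated arrays at 6.15, 6.62 and 6.17, a decrease of 1.31 ± 0.17. The 3 pairs of groups do not overlap, and the adjusted p were 3.95e-06, 0.00642 and 5.71e-05. Without scaling the C57BL6/J and C3H/HeJ calls were lost, at −0.78 and −0.69. A second, similarly bright probe set of Dll4 gave −0.78 in A/J, −0.67 in C57BL6/J and −1.35 in C3H/HeJ.

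Hey1, a transcriptional repressor switched on by Notch, fell by 0.79 ± 0.17 in A/J, by 1.38 ± 0.17 in C57BL6/J and by 1.87 ± 0.17 in C3H/HeJ (adjusted p of 0.00344, 0.000356 and 4.23e-06). Its controls were at 7.72, 8.04 and 7.99 in A/J, 8.39, 8.44 and 8.51 in C57BL6/J, and 8.48, 8.47 and 8.63 in C3H/HeJ. Irradiated arrays were at 6.80, 7.38 and 7.21, at 6.72, 7.13 and 7.36, and at 6.54, 6.53 and 6.90. The A/J controls were the lowest of the 3 control groups for this gene, and the effect in C3H/HeJ was 1.08 ± 0.24 below that in A/J (adjusted p = 0.0452), a call lost under 20 of 30 alternative settings. Gja4, a connexin of arterial gap junctions, fell by 0.80 ± 0.19, 1.05 ± 0.19 and 1.59 ± 0.19, with no overlap between irradiated arrays, 7.48, 8.08 and 7.83 in A/J, 6.90, 7.42 and 7.5 in C57BL6/J and 7.16, 7.68 and 7.67 in C3H/HeJ, and the controls of the strain, the lowest of which was 8.55, 8.10 and 8.91. In A/J the calls of Hey1 and Gja4 were lost without scaling, at −0.26 and −0.24, and with centring, at −0.49 and −0.47. That of Gja4 in C57BL6/J was lost without scaling, at −0.97.

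The venous receptor of Efnb2, Ephb4, fell by 0.88 ± 0.17 in C57BL6/J and by 0.56 ± 0.17 in C3H/HeJ, where without scaling it stood at 0.07 and the call was lost without any 1 array of that strain but control 1. In A/J it differed by −0.46 ± 0.17 (adjusted p = 0.0675). Notch4, the endothelial Notch receptor, fell by 0.57 ± 0.18 in C3H/HeJ, with 0.13 in its place without scaling and the call lost without any 1 array of that strain but control 3, and differed by −0.41 ± 0.18 in A/J and −0.64 ± 0.18 in C57BL6/J, both uncalled. Of 10 measured partners of these genes outside the member list, 1 fell and 3 rose in A/J, 1 fell in C57BL6/J, and 5 fell and 1 rose in C3H/HeJ. The Notch target Hes1 fell by 0.87 ± 0.19 in A/J and 0.84 ± 0.19 in C3H/HeJ, and the ligand Jag2 rose by 0.93 ± 0.23 in A/J. The receptor Notch1 fell by 0.72 ± 0.16 in C3H/HeJ, while the ligand Dll1 fell by 0.66 ± 0.16 in C57BL6/J and 0.75 ± 0.16 in C3H/HeJ.

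Of the 6 transcription factors, 4 fell in A/J, 4 in C57BL6/J and 3 in C3H/HeJ, and none rose. Their median was −0.63, −0.68 and −0.68, and without scaling −0.05, −0.59 and 0.02, so that its sign in C3H/HeJ flips there. Sox7, Sox17 and Sox18 form 1 SOX subgroup that acts in vessel formation. Sox18 was at 9.54, 9.71 and 9.51 in A/J controls and 8.69, 9.15 and 9.0 after irradiation, at 8.89, 8.77 and 9.08 against 7.99, 8.09 and 7.87 in C57BL6/J, and at 9.74, 9.55 and 9.51 against 8.48, 8.67 and 8.80 in C3H/HeJ. The irradiated arrays were lower in each strain without overlap, and the gene fell by 0.64 ± 0.13, 0.93 ± 0.13 and 0.95 ± 0.13 (adjusted p of 0.00239, 0.00116 and 0.00012). Without scaling it stood at −0.039, −0.855 and −0.22, and each call was lost. With centring the A/J call was lost too, at −0.27.

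Sox7 fell by 0.59 ± 0.14 in A/J, 0.58 ± 0.14 in C57BL6/J and 1.15 ± 0.14 in C3H/HeJ. Without scaling it stood at −0.021, −0.505 and −0.46, and each call was lost. With centring it lost its calls in A/J (−0.25) and C57BL6/J (−0.56). Its irradiated arrays reached at most 7.69, 8.01 and 7.66, where the lowest controls were at 8.15, 8.30 and 8.61. A dim second probe set of Sox7 gave −0.96 in A/J and −1.38 in C3H/HeJ, both called, and 0.03 ± 0.27 in C57BL6/J. With the mean of the gene's probe sets the C57BL6/J difference was −0.28, uncalled. Sox17, which is strongest in arteries, fell by 1.09 ± 0.28 in C57BL6/J and 1.49 ± 0.28 in C3H/HeJ, and its C57BL6/J call was lost when any 1 of the 6 arrays of that strain was left out, as was that of Sox7 without any 1 control or irradiated 1. In A/J it was at 8.78, 9.15 and 9.02 in controls and at 7.62, 8.75 and 8.73 after irradiation. The 3 irradiated A/J arrays lay below the controls, the first of them far below, and the difference of −0.62 ± 0.28 was not called (adjusted p = 0.12). A second probe set of Sox17 gave −0.63 in A/J and −0.50 in C57BL6/J, both uncalled, and −1.39 in C3H/HeJ, called lower.

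The ETS factors Erg and Fli1, which keep endothelial genes active, fell in A/J, by 0.84 ± 0.19 and 1.34 ± 0.21. The call of Erg was lost without scaling (−0.28) and with centring (−0.51). Fli1 was at 7.80, 7.99 and 7.56 in A/J controls and 5.92, 6.66 and 6.74 after irradiation, with adjusted p = 0.000355. In the other strains its groups overlapped, at −0.07 ± 0.21 in C57BL6/J and −0.14 ± 0.21 in C3H/HeJ. The effect in C57BL6/J lay 1.27 ± 0.30 above that in A/J (adjusted p = 0.0227). A second probe set of Fli1 gave −0.39 in A/J, and its effects in C57BL6/J and A/J differed by 0.13 ± 0.35. Tal1, a factor of blood and endothelial cells, fell in C57BL6/J, by 0.78 ± 0.15, from 6.67, 6.51 and 6.57 to 6.06, 5.53 and 5.82. Megakaryocytes also express Tal1 and Selp. Of 8 measured megakaryocyte and platelet genes 3 were lower in C57BL6/J, 1 was lower and 1 higher in A/J, and 1 was higher in C3H/HeJ. The mean of that list was 7.37 to 7.64 in untreated and 6.49 to 7.25 in irradiated C57BL6/J arrays, and its part in the Tal1 difference was not tested.

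The 15 surface and junction genes were the least uniform group. In A/J 4 fell and 3 rose, in C57BL6/J 1 fell and 1 rose, and in C3H/HeJ 7 fell and 1 rose. Of all genes, 8.95% fell and 15.1% rose in A/J, 2.36% and 2.99% in C57BL6/J, and 10.6% and 12.8% in C3H/HeJ. The median of the 15 genes was −0.14, −0.20 and −0.32, and without scaling it turned to 0.45 in A/J and 0.44 in C3H/HeJ and was −0.12 in C57BL6/J. The sialomucin Cd34, found on capillary endothelium and on blood progenitors and some fibroblasts, rose in all 3 strains. It stood at 8.35, 8.69 and 8.67 in A/J controls and 9.96, 9.52 and 9.76 after irradiation, at 8.55, 8.26 and 8.23 against 8.57, 9.24 and 9.11 in C57BL6/J, and at 8.13, 8.33 and 8.39 against 9.75, 9.92 and 10.04 in C3H/HeJ. The groups are well apart in A/J and C3H/HeJ and almost touch in C57BL6/J, through its irradiated 1. The increases were 1.18 ± 0.17, 0.63 ± 0.17 and 1.62 ± 0.17 (adjusted p of 0.000175, 0.0426 and 1.44e-05), and the C57BL6/J call was lost under 18 of 30 alternative settings.

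Plvap, which forms the diaphragms of endothelial vesicles and pores, fell by 1.87 ± 0.44 in A/J and fell by 2.31 ± 0.44 in C3H/HeJ. Controls were at 10.36, 10.38 and 10.25 in A/J and 10.87, 10.67 and 10.61 in C3H/HeJ, and irradiated arrays at 7.0, 9.12 and 9.26, and at 8.14, 8.49 and 8.59. All irradiated arrays were lower, and A/J irradiated 1 was lower than the others by a wide margin; without it the A/J difference was −1.14. In C57BL6/J irradiated arrays at 8.01, 9.31 and 8.98 also lay below controls at 10.28, 10.07 and 10.19, and the difference of −1.42 ± 0.44 missed the threshold (adjusted p = 0.0715).

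Cldn5, the claudin of endothelial tight junctions, fell by 1.26 ± 0.36 in A/J and 1.13 ± 0.36 in C3H/HeJ. In A/J its irradiated arrays were at 10.72, 9.15 and 8.92 against controls at 10.80, 10.92 and 10.87, so that irradiated 1 lay near the controls and the other 2 carried the difference. The call in A/J was lost when control 2, irradiated 2 or irradiated 3 was left out, and that in C3H/HeJ when any 1 array of the strain but irradiated 2 was. Icam2, an adhesion molecule that endothelium makes at all times, showed the same arrangement in A/J, with 10.18, 9.23 and 8.88 against 10.16, 10.12 and 10.47. It fell by 0.82 ± 0.27 there and by 0.99 ± 0.27 in C3H/HeJ. Without scaling Icam2 stood at −0.23 in A/J and −0.25 in C3H/HeJ, and Cldn5 at −0.68 and −0.38. These calls were lost, as they were with centring.

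Pecam1, the platelet and endothelial adhesion molecule at cell borders, fell by 0.56 ± 0.15 in C3H/HeJ. Eng, a co-receptor of the TGF-beta family, fell there by 0.64 ± 0.18 and Egfl7, a secreted endothelial protein, by 0.68 ± 0.23. Without scaling these 3 stood at 0.19, 0.10 and 0.06. The call of Pecam1 was lost without control 1, that of Eng without control 1 or irradiated 1, and that of Egfl7 without any 1 array of the strain but irradiated 2. In A/J they differed by −0.32 ± 0.15, −0.34 ± 0.18 and −0.24 ± 0.23, and in C57BL6/J by −0.00 ± 0.15, −0.62 ± 0.18 and −0.39 ± 0.23, none of them called. The sialomucin Emcn rose by 0.88 ± 0.27 in A/J, through irradiated arrays at 9.31 and 9.59, while irradiated 1 at 8.14 lay among the controls at 7.94, 8.18 and 8.29. The A/J calls of Emcn and Icam2 were lost without irradiated 2, irradiated 3, control 1 or control 2, and that of Icam2 also without control 3; without irradiated 3 Icam2 stood at −0.54. Mmrn2, a matrix protein of endothelium that binds Clec14a, rose by 0.90 ± 0.22 in A/J, from 7.70, 7.62 and 7.30 to 8.37, 8.19 and 8.75.

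The 5 uncalled genes of this group spread around 0 by the probe set that stands for each gene. The cadherin of endothelial junctions, Cdh5, differed by 0.37 ± 0.28 in A/J, −0.47 ± 0.28 in C57BL6/J and −0.17 ± 0.28 in C3H/HeJ. Esam and Jam2, 2 further junction molecules, ranged from −0.32 to 0.29 and from −0.18 to 0.54, Robo4 from −0.18 to 0.30, and Podxl from −0.22 to 0.01. A dimmer probe set of Cdh5 gave −1.08 in A/J, −0.59 in C57BL6/J and −0.83 in C3H/HeJ. One of Podxl gave −1.64, −0.03 and −0.69 in that order. Both were called lower in A/J and C3H/HeJ and uncalled in C57BL6/J.

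**Figure D3:**
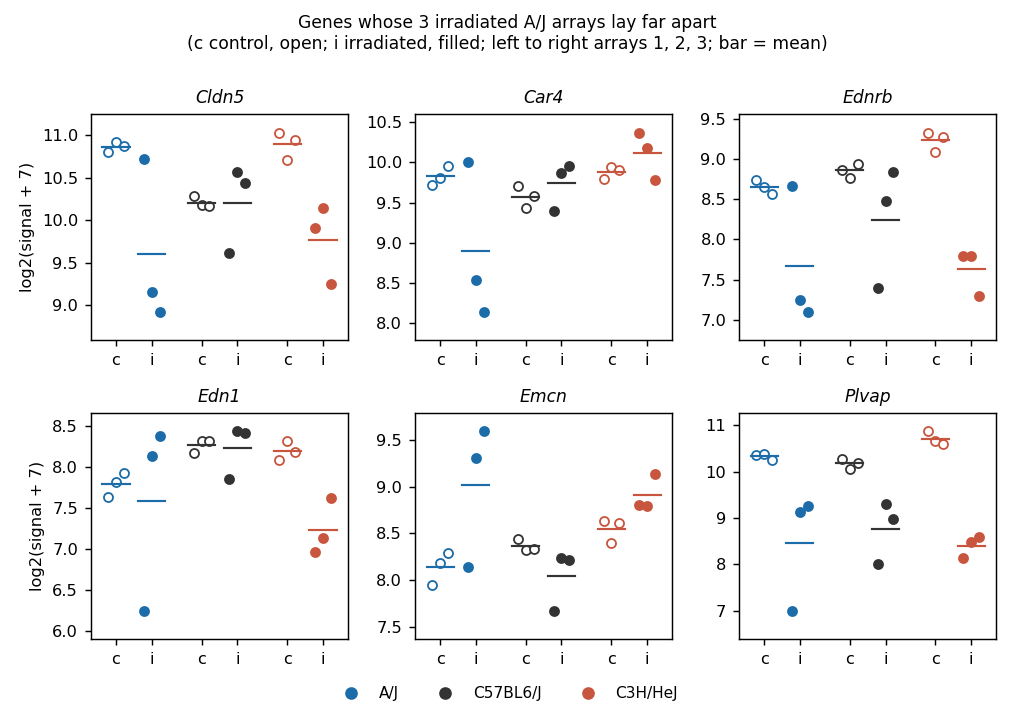
Normalized log2 signal of each array for 6 members whose irradiated A/J arrays lay far apart, chosen after their values were seen; open points are controls, filled points irradiated arrays and bars group means. A/J irradiated 1 lies with the controls for Cldn5, Car4, Ednrb and Emcn and far below the other irradiated A/J arrays for Edn1 and Plvap; the same array has a GAPDH 5′/3′ ratio of 0.294 and an actin ratio of 0.413, the lowest of the 18, and their part in these values was not tested.

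Both lung capillary genes were called lower in A/J, 1 of them in C3H/HeJ and none in C57BL6/J, where 1 had an unadjusted p under 0.05 in limma. Tmem100, a membrane protein of lung capillary endothelium induced by BMP signalling, was at 10.80, 10.84 and 10.80 in A/J controls and 9.01, 8.15 and 7.73 after irradiation. In C3H/HeJ it was at 10.71, 10.70 and 10.78 against 8.78, 8.69 and 8.11, and in C57BL6/J at 10.72, 10.53 and 10.70 against 8.94, 10.03 and 9.96. All irradiated arrays were lower, with 2 of the C57BL6/J arrays the least so. It fell by 2.52 ± 0.29 in A/J, the furthest of the 40 members there, and it fell by 2.20 ± 0.29 in C3H/HeJ (adjusted p of 2.87e-05 and 8.53e-05). The C57BL6/J difference of −1.01 ± 0.29 was not called (0.0573), and it lay 1.51 ± 0.41 above that in A/J (0.0448), a call lost under 23 of 30 alternative settings. A dimmer probe set of Tmem100 was called lower in C57BL6/J too, at −1.21 ± 0.26 (limma's adjusted p of 0.02 over probe sets). It gave −2.19 in A/J and −2.14 in C3H/HeJ, both called.

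Car4, a carbonic anhydrase that marks one of the capillary cell types of the alveolus, was at 10.01, 8.53 and 8.14 in irradiated A/J and 9.72, 9.80 and 9.96 in the controls. Irradiated 1 lay above all controls and the other 2 below them. The difference of −0.93 ± 0.33 was called at an adjusted p of 0.0497 and lost under 24 of 30 alternative settings; without irradiated 1 it was −1.49, and without irradiated 3 it was −0.56. In C57BL6/J and C3H/HeJ it was 0.17 ± 0.33 and 0.23 ± 0.33. The alveolar type 1 list, whose cells lie against these capillaries, had 1 of 8 genes lower in A/J, 0 in C57BL6/J (2 at an unadjusted p under 0.05 in limma) and 2 in C3H/HeJ, with a mean of 10.84 to 11.29 in irradiated A/J and 11.18 to 11.29 in A/J controls.

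The leukocyte adhesion genes went the other way. Of the 3 measured apart from Sele, 2 rose in A/J and 3 in C3H/HeJ, and none was called by limma in C57BL6/J, where 1 had an unadjusted p under 0.05. Their medians were 0.53, 0.79 and 0.20 in that order and kept their sign under each scaling. With the mean of a gene's probe sets, 1 rose in A/J. Selp, the selectin stored in granules of endothelium and platelets, was at 5.70, 5.18 and 5.53 in A/J controls and 6.52, 6.93 and 7.35 after irradiation. In C3H/HeJ it was at 5.48, 5.58 and 5.65 against 6.95, 7.30 and 6.98, and in C57BL6/J at 5.68, 5.61 and 5.16 against 5.43, 5.30 and 5.30. The groups are apart in A/J and C3H/HeJ and overlap in C57BL6/J. The gene rose by 1.46 ± 0.19 in A/J and 1.51 ± 0.19 in C3H/HeJ (adjusted p of 7.13e-05 and 5.89e-05) and differed by −0.14 ± 0.19 in C57BL6/J. A second, dim probe set of Selp gave 0.83 ± 0.44 in A/J, 0.24 ± 0.44 in C57BL6/J and 1.54 ± 0.44 in C3H/HeJ.

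The strains differed in the Selp effect by a test of the difference itself. The effect in C57BL6/J lay 1.61 ± 0.27 below that in A/J (adjusted p = 0.00446) and 1.65 ± 0.27 below that in C3H/HeJ (0.00699). Each call was lost under 1 of 30 settings, the mean of the gene's probe sets. With the dim second probe set the differences were −0.59 ± 0.63 and −1.30 ± 0.63, neither of them called. Sele, the selectin made mainly by activated endothelium, was dim: 4 of 18 arrays lay above the overall median of 4.98, namely 2 irradiated A/J and 2 irradiated C3H/HeJ arrays, so that it passed the filter through the groups in which it is high, and its values are given as a description. Its levels were 3.79, 3.95 and 3.49 in A/J controls and 4.64, 5.38 and 5.98 after irradiation, and 4.09, 3.86 and 3.69 against 4.73, 5.16 and 5.81 in C3H/HeJ. The irradiated arrays were all higher in these strains, with differences of 1.59 and 1.35, and C57BL6/J gave −0.03 with overlapping arrays.

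**Figure D4:**
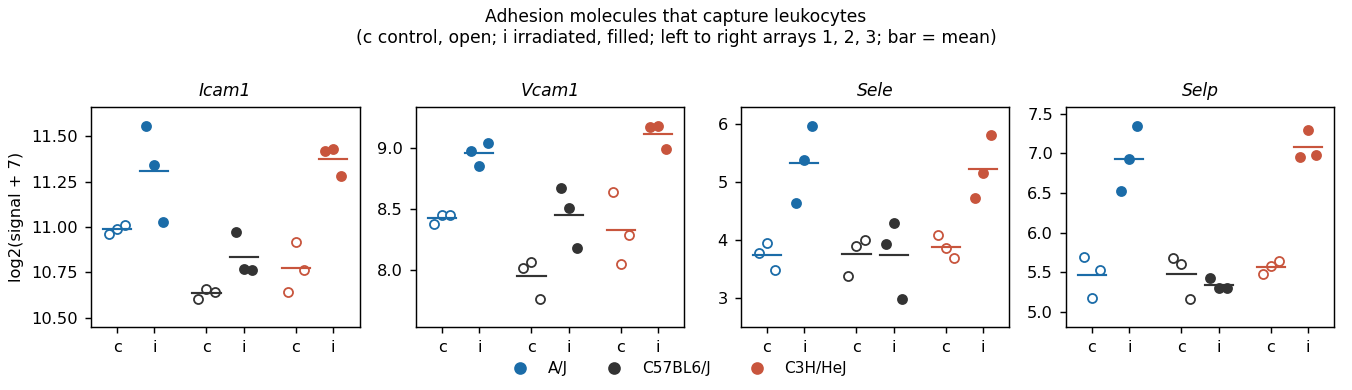
Normalized log2 signal of each array for the 4 adhesion molecules that capture leukocytes; open points are controls, filled points irradiated arrays and bars group means. For Selp, irradiated A/J and C3H/HeJ arrays lie between 6.52 and 7.35 and all C57BL6/J arrays between 5.16 and 5.68.

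Sele and Selp are neighbours on mouse chromosome 1, and the 150 bases before their starts on the plus strand of GRCm38.p6 (RefSeq) are shown because these genes encode the 2 selectins of endothelium, with a kappa B match in capitals. The windows are chr1:164048084-164048233 for Sele and chr1:164115114-164115263 for Selp. Sele has the match 136 bases before its start. Of the 3 listed adhesion genes, Sele, Selp and Icam1, it was the 1 with a match in the 250 bases searched, beside 6 of the 24 listed members (25%) and 16.6% of all promoters. A kappa B match was also found in 2 of the 4 listed genes lower in all 3 strains, Clec14a and Dll4. AGGAAG lay in the windows of Sele and Selp, and ACAAT in none of the 3.
Sele: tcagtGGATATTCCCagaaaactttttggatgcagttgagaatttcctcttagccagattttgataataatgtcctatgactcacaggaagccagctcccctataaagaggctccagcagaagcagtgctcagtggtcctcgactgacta
Selp: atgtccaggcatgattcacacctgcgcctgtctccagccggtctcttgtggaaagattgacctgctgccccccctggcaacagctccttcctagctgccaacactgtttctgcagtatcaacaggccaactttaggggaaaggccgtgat

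Vcam1, an endothelial partner of leukocyte integrins, rose by 0.53 ± 0.15 in A/J, from 8.38, 8.45 and 8.45 to 8.97, 8.85 and 9.04, and by 0.79 ± 0.15 in C3H/HeJ, from 8.64, 8.05 and 8.29 to 9.17, 9.18 and 8.99. In C57BL6/J it was at 8.02, 8.07 and 7.76 in controls and 8.67, 8.51 and 8.18 after irradiation. The A/J call was lost without control 1 and without irradiated 3. The C57BL6/J arrays do not overlap either, yet the difference of 0.51 ± 0.15 had an adjusted p of 0.0603. Another probe set of Vcam1 gave 0.06 ± 0.16 in A/J and 0.21 ± 0.16 in C3H/HeJ. A dimmer one gave 0.60 ± 0.24 and 0.62 ± 0.24, and none of these values was called. Icam1, the partner of the leukocyte integrin LFA-1, which many other lung cells make too, rose by 0.60 ± 0.12 in C3H/HeJ (adjusted p = 0.00223). Its irradiated arrays also lay above all controls in A/J (0.33 ± 0.12) and C57BL6/J (0.20 ± 0.12) without a call.

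Of 9 measured ligands of these molecules on leukocytes, 2 were higher and 1 lower in A/J, 1 was higher in C57BL6/J and 2 were higher in C3H/HeJ. Of all genes, 15.1%, 2.99% and 12.8% were higher in these strains, and 8.95% were lower in A/J. The P-selectin ligand Selplg was higher in all 3, by 0.47 ± 0.10, 0.39 ± 0.10 and 0.80 ± 0.10, and the LFA-1 chain Itgal was lower in A/J, by 0.57 ± 0.13. Leukocyte markers moved in the same arrays, not all in 1 direction. Of 11 macrophage genes 8 rose in A/J, 5 in C57BL6/J and 10 in C3H/HeJ, with a list mean of 7.25 to 7.52 in the 9 control arrays and of 7.72 to 8.95, 7.59 to 8.86 and 8.78 to 9.10 in irradiated arrays. Of 7 mast cell genes 7, 1 and 7 rose, with a list mean of 3.50 to 5.05 in controls and of 7.39 to 8.03 in irradiated A/J, 4.32 to 5.33 in C57BL6/J and 6.57 to 7.42 in C3H/HeJ. The control groups averaged 4.56, 3.85 and 3.94, below the overall median of 4.98 that the filter used. Mast cell genes may thus have passed it through the irradiated arrays in which they are high, and their counts are given as a description. Of 5 measured neutrophil genes 2 fell in A/J, where the list mean went from 7.47 to 6.82, and 2 rose in C3H/HeJ, from 7.04 to 7.60. Of 7 measured T and NK cell genes 4 fell in A/J, from a mean of 6.13 to 5.32, and 1 fell in C3H/HeJ. In C57BL6/J 0 of these 12 were called by limma, and 4 T and NK cell and 0 neutrophil genes had an unadjusted p under 0.05. The part of these lists in the adhesion gene differences was not tested.

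The 6 genes of vessel tone split: 1 rose and 1 fell in A/J, 1 rose and 2 fell in C3H/HeJ, and 0 were called in C57BL6/J, where limma gave 0 unadjusted p under 0.05 as well. Of all genes, 15.1% rose and 8.95% fell in A/J, and 12.8% rose and 10.6% fell in C3H/HeJ. The single rises are near these shares. Nos3, the endothelial nitric oxide synthase, rose in A/J by 0.88 ± 0.13, from 6.0, 6.12 and 6.13 to 6.79, 7.08 and 7.02, and in C3H/HeJ by 0.52 ± 0.13, from 6.24, 6.01 and 6.17 to 6.51, 6.60 and 6.86. In C57BL6/J the groups overlapped (0.16 ± 0.13), and the effect lay 0.72 ± 0.18 below that in A/J (adjusted p = 0.0342), a call lost under 14 of 30 settings. Ece1, which cleaves the endothelin precursor, was at 9.96, 9.87 and 9.64 in A/J controls and 7.43, 8.15 and 8.26 after irradiation, and at 10.07, 9.67 and 9.45 against 8.65, 9.10 and 8.21 in C3H/HeJ. The arrays are apart in both strains. It fell by 1.87 ± 0.23 and 1.08 ± 0.23, and C57BL6/J differed by −0.24 ± 0.23, an effect 1.64 ± 0.33 above that in A/J (adjusted p = 0.00981). Of its 3 tested probe sets, another bright one gave −0.06 ± 0.16 in A/J and −0.43 ± 0.16 in C3H/HeJ, uncalled, and a dim one gave −0.04 and 0.15, so that the decrease depends on the probe set that stands for the gene.

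Ednrb, the endothelin receptor that clears endothelin in lung endothelium, fell by 1.60 ± 0.36 in C3H/HeJ, from 9.33, 9.09 and 9.28 to 7.80, 7.80 and 7.30. In A/J its irradiated arrays were at 8.67, 7.25 and 7.10 and its controls at 8.74, 8.65 and 8.57, with irradiated 1 again among the controls (−0.98 ± 0.36, adjusted p = 0.0573). A dimmer probe set of Ednrb was lower in A/J, at −1.87 ± 0.26. Edn1, the endothelin gene, differed by −0.96 ± 0.38 in C3H/HeJ (adjusted p = 0.0807) and was at 6.25, 8.13 and 8.38 in irradiated A/J. Ace and S1pr1 differed by −0.46 to 0.03 and by −0.23 to 0.06. A second, similarly bright probe set of Ace was called lower in A/J (−1.04 ± 0.12) and C3H/HeJ (−0.57 ± 0.12) and gave −0.20 in C57BL6/J, uncalled. Among 9 measured partners of endothelin, angiotensin and nitric oxide signalling, 2 rose and 3 fell in A/J, 1 fell in C57BL6/J, and 2 rose and 3 fell in C3H/HeJ. The sphingosine kinase Sphk1 rose by 1.54 ± 0.17 in A/J and 1.41 ± 0.17 in C3H/HeJ, and the nitric oxide receptor chain Gucy1b1 fell by 0.62 ± 0.13 and 0.43 ± 0.13.

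Lyve1, the hyaluronan receptor of lymphatic endothelium that some lung macrophages also carry, fell by 1.07 ± 0.28 in C3H/HeJ, from 9.41, 9.37 and 9.41 to 8.34, 8.60 and 8.05, a call that was lost without irradiated 3. In A/J irradiated arrays at 8.93, 8.00 and 7.41 lay on both sides of the controls at 8.67, 8.45 and 8.42. Of 6 measured lymphatic partners, 1 was higher in A/J, 1 lower in C57BL6/J and 1 lower in C3H/HeJ. These were the growth factor Vegfd (0.90 ± 0.18 in A/J) and the multimerin Mmrn1 (−0.70 ± 0.14 in C57BL6/J and −0.69 ± 0.14 in C3H/HeJ).

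A wider list of endothelial genes, also chosen with earlier results of these data known, moved the way of the members. Its counts describe that list and are no test of the members. Of 33 measured, 19 were lower and 2 higher in A/J, 16 lower and 1 higher in C57BL6/J, and 23 lower and 1 higher in C3H/HeJ, with medians of −0.47, −0.53 and −0.74 that became 0.06, −0.44 and −0.02 without scaling. In C57BL6/J without the 3 arrays high in squamous keratins 2 were lower and 0 higher. The receptor tyrosine kinase Tek, which binds angiopoietins, differed by −2.14 ± 0.18 in A/J, −1.68 ± 0.18 in C57BL6/J and −2.74 ± 0.18 in C3H/HeJ, each called. Aplnr, the apelin receptor, was called at −1.56 ± 0.37, −2.82 ± 0.37 and −2.05 ± 0.37, and the secreted semaphorin Sema3g at −1.48 ± 0.19, −0.92 ± 0.19 and −2.5 ± 0.19. Procr, the endothelial protein C receptor, rose by 1.03 ± 0.21, 0.87 ± 0.21 and 0.63 ± 0.21. Vwf, the von Willebrand factor gene that is stored with Selp, rose by 0.61 ± 0.17 in A/J, fell by 1.25 ± 0.17 in C3H/HeJ and differed by −0.02 ± 0.17 in C57BL6/J.

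The mean over the 40 members was lower in every irradiated array than in every control array on the quantile-normalized scale, whereas without scaling the members' median difference turned to 0.19 in A/J and 0.16 in C3H/HeJ. It was 8.58 to 8.69, 8.55 to 8.61 and 8.73 to 8.78 in untreated A/J, C57BL6/J and C3H/HeJ, and 8.24 to 8.30, 7.93 to 8.37 and 8.19 to 8.28 after irradiation. C57BL6/J irradiated 1, at 7.93, was the lowest. It was the lowest of its group for 29 of 40 members, while it was so for 39.1% of all genes. The same array had the highest macrophage mean of its group, at 8.86 against 8.03 and 7.59, and the highest mast cell mean, at 5.33 against 4.50 and 4.32.

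Differences of the effect between strains were called in few members, each read from the probe set that stands for the gene. Between C57BL6/J and A/J 6 of 40 passed (15.0%, against 5.45% of all genes), namely Selp and Nos3 with a lower effect in C57BL6/J, and Ece1, Fli1, Tmem100 and Dll4 with a higher one. Between C3H/HeJ and A/J 1 passed (2.5%, against 1.06%), which was Hey1. Between C57BL6/J and C3H/HeJ 1 passed (2.5%, against 1.6%), which was Selp. The 3 comparisons share the arrays of each strain. For the other members a call in 1 strain and none in another does not show that the strains differ. Other probe sets added calls by limma, adjusted over probe sets. Between C57BL6/J and A/J the effect was higher in C57BL6/J for Efnb2 (0.93 and 1.18), Ednrb (1.61), Podxl (1.615) and Ace (0.845), and lower for Mmrn2 (−1.41). That probe set of Mmrn2 was also called between C3H/HeJ and A/J (−1.26). The remaining probe sets of these genes were uncalled.

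Untreated strains were close for most members. Between untreated C57BL6/J and A/J 3 members were called (7.5%, against 10.4% of all genes, 5.93% higher and 4.46% lower): Sox18 was lower in C57BL6/J by 0.68 ± 0.13, Dll4 was lower by 0.57 ± 0.17, and Lyve1 was higher by 1.45 ± 0.28. Between untreated C3H/HeJ and A/J 1 was called (2.5%, against 4.5%, 2.34% higher and 2.16% lower), with Sox7 higher in C3H/HeJ by 0.53 ± 0.14. Between untreated C57BL6/J and C3H/HeJ 4 were called (10%, against 10.8%, 6.01% higher and 4.82% lower): Gja4, Sox18 and Dll4 were lower in C57BL6/J, by 0.76 ± 0.19, 0.69 ± 0.13 and 0.64 ± 0.17, and S1pr1 was higher by 1.00 ± 0.24. Dll4 and Sox18 thus started from a lower level in C57BL6/J.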

How the data were processed

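The deposited values are 1 linear signal intensity per probe set and array, made by the authors with MAS5 per the submitters' processing notes; its version and scaling are not given in the sources used here. After removal of 64 control probe sets, log2(intensity + 7) was quantile-normalized, where 7 is the rounded 25th percentile of all values. The added 7 understates changes of dim genes. Probe sets were kept where 3 or more of the 18 arrays exceeded the overall median. Genes were named from the platform annotation, in which 34958 of 35890 rows name 1 gene, with symbols updated through RefSeq, and each was represented by its kept probe set with the highest mean.

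One model of 6 group means was fitted to 18 arrays with limma 3.58.1 in R 4.3.3, with 12 residual degrees of freedom, for 9 comparisons, with Benjamini-Hochberg adjustment over 12412 genes and a threshold of 0.05. The fit was tested on simulated data. Moribund mice were separate animals per the labels, while controls are described only as 3 samples, so that p-values may there measure technical spread. Array number limits the precision. All 42 members are named, and of other lists up to 4 called genes. Members and lists were chosen with earlier results of these data known. Replicate numbers did not pair arrays: in 0 of 9 pairs was the correlation of deviations over 0.1. The 30 alternatives were scaling, pseudocount, filter, probe set rule, model, and arrays left out.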

Additional observations from a re-analysis of the deposited data

Results flagged for a closer look

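In 7 members, each read from the probe set that stands for the gene, the effect of irradiation differed between strains by the interaction test in limma. Other probe sets of Efnb2, Ednrb, Podxl, Ace and Mmrn2 were also called different between C57BL6/J and A/J. Between C57BL6/J and A/J the effect differed for Dll4 by 0.88 ± 0.23 (adjusted p = 0.0394), for Ece1 by 1.64 ± 0.33 (0.00981), for Fli1 by 1.27 ± 0.30 (0.0227) and for Tmem100 by 1.51 ± 0.41 (0.0448), each less lowered in C57BL6/J. For Nos3 it differed by −0.72 ± 0.18 (0.0342) and for Selp by −1.61 ± 0.27 (0.00446), each raised in A/J and uncalled in C57BL6/J. Between C3H/HeJ and A/J the effect on Hey1 differed by −1.08 ± 0.24 (0.0452). Between C57BL6/J and C3H/HeJ the effect on Selp differed by −1.65 ± 0.27 (0.00699). Of the 30 alternative settings, the call was lost for Tmem100 in 23, Hey1 in 20, Dll4 in 17, Nos3 in 14, Fli1 in 8, Ece1 in 3 and each Selp value in 1. With a second probe set the same difference was 0.11 ± 0.25 for Dll4, 0.13 ± 0.35 for Fli1, −0.31 ± 0.22 for Ece1 and 0.98 ± 0.36 for Tmem100, none of them called. For Selp a second, dim probe set gave −0.59 ± 0.63 against A/J and −1.30 ± 0.63 against C3H/HeJ, both uncalled. Groups of 3 arrays are too small for a test of single outlying arrays.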

How the results depend on the processing

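Each result was recomputed under 30 alternatives, 18 of which left out 1 array. Of the members called, leaving out Sele, 9 of 21 in A/J, 0 of 11 in C57BL6/J and 10 of 25 in C3H/HeJ were called under every alternative. The A/J genes were Mmrn2, Cd34, Fli1, Selp, Nos3, Ece1, Tmem100, Efnb2 and Dll4, and those in C3H/HeJ were Plvap, Cd34, Icam1, Vcam1, Selp, Ednrb, Tmem100, Gja4, Efnb2 and Hey1. No alternative was built to read a gene from another of its probe sets alone. In A/J other probe sets of Ece1 (−0.06), Fli1 (−0.39), Selp (0.83) and Mmrn2 (0.60) were uncalled, as was one of Vcam1 in C3H/HeJ (0.21). Those of Tmem100, Efnb2 and Dll4 were called lower in A/J. In C3H/HeJ without scaling, Pecam1 turned to 0.19, Eng to 0.10, Egfl7 to 0.064, Ephb4 to 0.068 and Notch4 to 0.13. Members called in C57BL6/J numbered 3 without scaling, 4 with only the groups compared in the fit and 1 without the 3 arrays high in squamous keratins, which leave 1 control; in C3H/HeJ they numbered 15 without scaling.

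Members with an effect called different between C57BL6/J and A/J numbered 3 without scaling, 3 without a filter, 3 with the mean of a gene's probe sets, 3 with only the groups compared and 1 without the 3 arrays. Between C3H/HeJ and A/J they numbered 0 without scaling, with centring, with a pseudocount of 1, without a filter, with only the groups compared and without the 3 arrays, and 2 with a pseudocount of 32 or a variance trend. Between C57BL6/J and C3H/HeJ they numbered 2 without scaling, with centring, with a pseudocount of 32, with the mean of probe sets and with a trend. Between untreated C57BL6/J and A/J they numbered 1 without scaling, 6 with a pseudocount of 32, 5 with 9 arrays above the median, 6 with the mean of probe sets, 9 with only the groups compared and 7 with a trend. Between untreated C3H/HeJ and A/J they numbered 0 without scaling, with centring, without a filter, with the mean of probe sets and without the 3 arrays, 2 with a pseudocount of 32, with 9 arrays or with a trend, and 5 with only the groups compared. Between untreated C57BL6/J and C3H/HeJ they numbered 1 without scaling, 2 with centring, 7 with the mean of probe sets, 9 with only the groups compared and 1 without the 3 arrays. The cause of these moves was not tested. Sele was among the members counted in this paragraph and the next, where it passed the filter.

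With 1 array left out, members called ranged from 18 (without A/J control 2) to 25 (without A/J irradiated 1) in A/J, from 8 (without C57BL6/J control 1) to 14 (without A/J irradiated 1) in C57BL6/J, and from 18 (without C3H/HeJ irradiated 3) to 27 (without A/J irradiated 1) in C3H/HeJ. The differences of effects ranged from 2 to 10 for C57BL6/J and A/J, from 0 to 3 for C3H/HeJ and A/J and from 1 to 5 for C57BL6/J and C3H/HeJ, and the untreated differences from 2 to 8, from 0 to 3 and from 2 to 7. Shared replicate numbers in the labels did not pair the arrays, and 1 of 9 control arrays correlated best with its own number. With the replicate number as a block, 21 members were called in A/J, 10 in C57BL6/J and 26 in C3H/HeJ, and 5 between untreated C57BL6/J and A/J.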

Other observations

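Probe sets of a member disagreed most in A/J. Over the 20 members with several kept probe sets, the median gap between the highest and the lowest difference within a gene was 0.53 in A/J, 0.22 in C57BL6/J and 0.18 in C3H/HeJ, beside 0.41, 0.22 and 0.32 over 5628 genes. The gap was over 1 in 5 members in A/J (25%), 0 in C57BL6/J and 1 in C3H/HeJ (5%), beside 14.8%, 0.888% and 3.73% of the 5628 genes. In A/J the 2 probe sets of Cdh5 gave 0.37 and −1.08, those of Podxl −0.14 and −1.64, and those of Ace −0.25 and −1.04, so that these genes, uncalled above, had a second probe set that was lower. The same second probe sets were called lower in C3H/HeJ, at −0.83 for Cdh5, −0.69 for Podxl and −0.57 for Ace (limma's adjusted p of 0.00436, 0.0345 and 0.00459 over probe sets). Of the 3 probe sets of Ednrb, which was uncalled in A/J, 1 was called there, at −1.87 (0.000108). No member had probe sets called in both directions in a strain. The actin 5′/3′ signal ratio was lowest in the irradiated A/J arrays, at 0.413 to 0.551, as was the GAPDH ratio, at 0.294 to 1.03, and their part in these gaps was not tested.

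Of 11 genes of pericytes, the cells that wrap capillaries, 4 were higher in A/J, 0 were called in C57BL6/J (2 had an unadjusted p under 0.05 in limma), and 2 were higher and 1 lower in C3H/HeJ. Rgs5 was higher by 1.83 ± 0.34 in A/J and 1.59 ± 0.34 in C3H/HeJ, and Pdgfrb differed by 0.04 ± 0.15, 0.04 ± 0.15 and −0.00 ± 0.15 in A/J, C57BL6/J and C3H/HeJ.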
